A study of Mus musculus with 6 samples.

Results

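DNA methylation and Polycomb repression are 2 chemical systems that keep genes silent through cell division, and 10 of their core regulators were followed here in regulatory T cells (Treg cells) that overexpress miR-27. The genes were taken by name from the deposited table: the methyltransferases Dnmt1, Dnmt3a and Dnmt3b, the Dnmt1 cofactor Uhrf1, the dioxygenases Tet1, Tet2 and Tet3, and the Polycomb repressive complex 2 (PRC2) subunits Ezh2, Eed and Suz12. All 10 were found among 24453 gene symbols, each represented by its transcript row with the highest mean level. All 10 also passed the filter on low values, as did 13621 genes in all. The series holds 3 libraries of a group with the miR-27 transgene (genotype miR-27 Tg) and 3 of a control group (WT, whose genotype label reads WT Tg). Both groups are CD4+Foxp3+ Treg cells of healthy C57BL/6 females of unstated age, isolated by flow sorting. The series title names Foxp3cre het for the experiment, so Cre in these mice is driven by the Foxp3 gene. Foxp3 lies on the X chromosome, and the sources used here do not say how the sort treated cells without active Cre. The labels do not state whether each library is a separate mouse, so the p-values reflect library-to-library spread, part or all of which could be technical.

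In mammals, Dnmt1 copies CpG methylation onto the new DNA strand after replication, guided by Uhrf1, which binds hemimethylated CpG. Dnmt3a and Dnmt3b set methylation on unmethylated sites, and the Tet enzymes oxidise 5-methylcytosine as the first step of its removal. Ezh2 is the catalytic subunit that trimethylates lysine 27 of histone H3, while Eed reads that mark and Suz12 holds the complex together. In Treg cells both systems have known roles: demethylation of an enhancer within Foxp3 keeps that gene stably on, and Ezh2 is needed for the repressive programme of activated Treg cells.

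A microRNA of the miR-27 family recognises messenger RNAs mainly through its seed, bases 2 to 8 from the 5′ end. The mature sequences are shown because they define which of the 10 transcripts carry a match, with the seed in capitals (RefSeq, build GRCm38.p6). The microRNA miR-27a lies on chromosome 8 from 84208727 to 84208747 and miR-27b on chromosome 13 from 63300760 to 63300780, both on the plus strand.
mmu-miR-27a-3p: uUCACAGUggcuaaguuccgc
mmu-miR-27b-3p: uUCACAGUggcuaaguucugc
Both members share 1 seed, whose match in DNA letters is ACTGTGA. This match was searched on the sense strand of the longest annotated 3′ UTR of each gene (GENCODE M21, GRCm38). It was present in 2 of the 10 regulators, Tet1 with 2 sites and Suz12 with 1, which is 20% of them. Among 11817 tested genes with an annotated 3′ UTR 16.7% held a match, and 19.2% of the 9711 whose 3′ UTR lies in the length range of the 10 regulators did. The 3 sites are shown with the match in capitals, each as 21 bases of the transcript strand.
Tet1 site 1: gaatacttaACTGTGAttaca
Tet1 site 2: tggcagctcACTGTGAtgtgg
Suz12 site 1: atgtgtttaACTGTGAggcta
The Tet1 stretches span chr10:62812329-62812349 and chr10:62808499-62808519 on the minus strand, and begin their matches at bases 192 and 4022 of a 3′ UTR of 7962 bases. The Suz12 stretch spans chr11:80033451-80033471 on the plus strand, with its match at base 1270 of 1933. None of the 3 matches is followed by an A. The other 8 regulators had no match in this window, among them Dnmt3a with a 3′ UTR of 6696 bases and Tet3 with one of 5669. A match describes letters only, and no binding was measured.

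Each library matched its label by the hairpin transcript of the overexpressed microRNA: Mir27a had 8919, 7448 and 7898 RPKM in miR-27 Tg replicates 1 to 3, against 24.9, 38.4 and 24.7 RPKM in WT. RPKM here means reads per kilobase of exon and per 10000000 counted reads, so levels are scaled for transcript length. Comparisons between genes remain approximate, because a level depends on the transcript row chosen. For Dnmt1 the mean ran from 193 to 215 RPKM over its 5 rows. Counted reads totalled 34400000 to 38100000 in miR-27 Tg and 37700000 to 42100000 in WT. These totals run over all transcript rows, and a read in an exon shared by several rows enters once per row. They are therefore not the sequencing depth. The 6 Treg and T cell markers (Foxp3, Cd4, Cd3e, Il2ra, Ikzf2 and Ctla4) were all well expressed, with a summed level of 8171 to 8453 RPKM in miR-27 Tg and 8935 to 9851 in WT, which did not overlap. The largest difference within that sum was Ctla4, with a mean of 2335 RPKM in miR-27 Tg and 3436 in WT. By limma 0 of the 6 were called, with log2 fold changes above 0 for 3 and below 0 for 3. An unadjusted p under 0.05 by limma was found for 2, Ctla4 (log2 fold change -0.56) and Ikzf2 (-0.51). Cd4 went the other way without overlap, at 2117 to 2293 RPKM in miR-27 Tg and 1864 to 2034 in WT (0.18). Foxp3 had 774 to 955 RPKM in miR-27 Tg and 662 to 830 in WT (0.13).

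Over all 13621 genes tested, 1.03% were called by limma at an adjusted p of 0.05 and 13.0% had an unadjusted p under 0.05. The 10 myeloid markers summed to 403 to 959 RPKM in miR-27 Tg and 159 to 388 in WT, with no overlap. Of the 9 above the filter, 9 had an unadjusted p under 0.05 by limma, each with a higher mean in miR-27 Tg, with log2 fold changes of 0.54 to 2.69 and a median of 1.18. The integrin chain Itgam passed (1.69, limma adjusted p = 0.0118, which was 0.0685 without miR-27 Tg replicate 3 and 0.0509 without WT replicate 1). Lyz2 averaged 367 RPKM in miR-27 Tg and 167 in WT, and Cd14 was under 1 RPKM. Markers of CD8 T and NK cells, at a sum of 159 to 266 RPKM in miR-27 Tg and 180.4 to 237 in WT, went both ways, with 3 of 5 at an unadjusted p under 0.05 by limma and without overlap. Nkg7, a granule protein, was called lower, with 53.0 ± 5.52 RPKM in miR-27 Tg and 102 ± 11.6 in WT (-0.93, limma adjusted p = 0.0257, and 0.0458 to 0.0980 without 1 library, above 0.05 in each of these 6 fits but the one without miR-27 Tg replicate 2). The others were Klrb1c (-1.05) and Cd8b1 (0.72), which did not pass (limma adjusted p = 0.140 and 0.258). The B cell markers summed to 88.5 to 132 RPKM in miR-27 Tg and 113 to 141 in WT, most of it Cd79b, with 0 of 5 called by limma and 1 at an unadjusted p under 0.05. The part of any of these cell types in the levels below was not tested. In such bulk samples fewer cells of a type and less RNA per cell cannot be told apart.

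In miR-27 Tg Treg cells 0 of the 10 regulators passed against WT by limma at an adjusted p of 0.05, with the smallest adjusted p at 0.716 (Tet1). At an unadjusted p under 0.05 the count was also 0 of 10, against 13.0% of all 13621 genes tested. By the adjusted test 1.03% of all genes were called (140 genes, 0.374% higher and 0.653% lower in miR-27 Tg). That count over all genes fell to between 5 and 67 when any 1 library was left out, each of the 6 moving it by over 1.5 times. The count among the 10 regulators was 0 in each of these fits, which says little where so few genes were called. The groups overlapped for all 10 regulators, and they did not overlap for 18.5% of all genes tested. The log2 fold changes were above 0 for 6 regulators and below 0 for 4, with a median of 0.042 against -0.013 over all genes. In size, regardless of sign, their median was 0.065, against 0.133 over all genes and 0.107 over the 7492 genes with a mean level between those of Tet1 and Suz12, of which 0.988% were called.

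**Figure D1:**
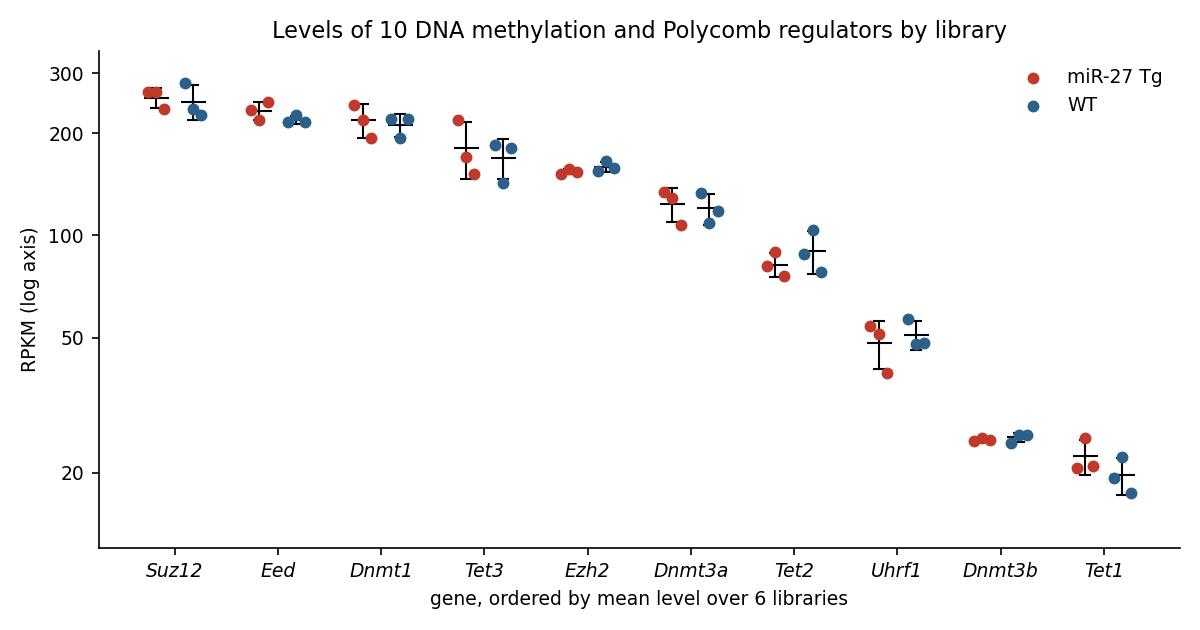
RPKM (log axis) of the 10 regulators in each library, with 3 miR-27 Tg points left of 3 WT points per gene; bars are the mean and SD of each group (n = 3). The levels run from about 21.0 RPKM for Tet1 to 251 for Suz12, and the points of both groups overlap for every gene.

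The levels of the 10 genes spanned a wide range, in the order Suz12, Eed, Dnmt1, Tet3, Ezh2, Dnmt3a, Tet2, Uhrf1, Dnmt3b and Tet1. Suz12 averaged 251 RPKM over the 6 libraries, at the percentile 85.0 of the genes tested, and Tet1 21.0 RPKM, at the percentile 30.0. The 4 steps from Ezh2 down to Dnmt3b were clear in the sense that the ranges of neighbouring genes did not overlap over the 6 libraries. At the top the order was not resolved: Suz12 was above Eed in 5 of 6 libraries, Eed above Dnmt1 in 2, Dnmt1 above Tet3 in 6 with overlapping ranges, and Tet3 above Ezh2 in 4. Dnmt3b was above Tet1 in 5 of 6 libraries.

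The maintenance pair comes first. Dnmt1 (NM_001199432, mm10 chromosome 9, 20907206 to 20959888, minus strand), which restores methylation after replication, had 243, 219 and 194 RPKM in miR-27 Tg replicates 1 to 3, against 220.2, 193 and 221 RPKM in WT. The highest value was in a miR-27 Tg library and the lowest in a WT library, and miR-27 Tg replicate 3 lay within 1 RPKM of that lowest value. The means were 219 ± 24.7 RPKM in miR-27 Tg and 211 ± 15.8 in WT (SD, n = 3 each), a log2 fold change of 0.046 with a 95% interval of -0.21 to 0.30 (limma, adjusted p = 0.923). Uhrf1 (NM_001111080, chromosome 17, 56304313 to 56323486, plus strand), which brings Dnmt1 to hemimethylated DNA, had 54.1, 51.1 and 39.3 RPKM in miR-27 Tg, against 56.9, 47.7 and 48.3 RPKM in WT. A single library, miR-27 Tg replicate 3, was below all the others. Uhrf1 averaged 48.2 ± 7.81 RPKM in miR-27 Tg and 51.0 ± 5.11 in WT (log2 fold change -0.088, interval -0.43 to 0.26, limma adjusted p = 0.876), and the fold change was 0.048 without that library. Dnmt1 stood 4.57 ± 0.322 times above Uhrf1 in miR-27 Tg and 4.16 ± 0.360 times in WT, with overlapping groups.

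Of the de novo enzymes, Dnmt3a stood 4.95 ± 0.575 times above Dnmt3b in miR-27 Tg and 4.74 ± 0.647 times in WT, with overlapping groups. Dnmt3a (NM_001271753, chromosome 12, 3807160 to 3914443, plus strand) had 134, 129 and 108 RPKM in miR-27 Tg, against 134, 109 and 118 RPKM in WT. Both groups thus covered nearly the same range. Its log2 fold change was 0.041 (interval -0.24 to 0.32, limma adjusted p = 0.939), from means of 124 ± 14.2 and 120.1 ± 12.7 RPKM in miR-27 Tg and WT. Dnmt3b (NM_001271747, chromosome 2, 153649449 to 153687730, plus strand) had 24.7, 25.2 and 24.9 RPKM in miR-27 Tg, against 24.5, 25.9 and 25.8 RPKM in WT. It was the steadiest of the 10 genes: the coefficient of variation over the 6 libraries was 2.25%, less than the 5.17% that counting error alone gives at its 338 to 406 reads per library. Its fold change was -0.024 (interval -0.30 to 0.25, limma adjusted p = 0.964). Of the summed RPKM of the 3 methyltransferases, Dnmt1 held 59.5% ± 0.865, Dnmt3a 33.6% ± 0.799 and Dnmt3b 6.85% ± 0.749 in miR-27 Tg, and Dnmt1 59.2% ± 1.21, Dnmt3a 33.6% ± 1.54 and Dnmt3b 7.16% ± 0.716 in WT.

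**Figure D2:**
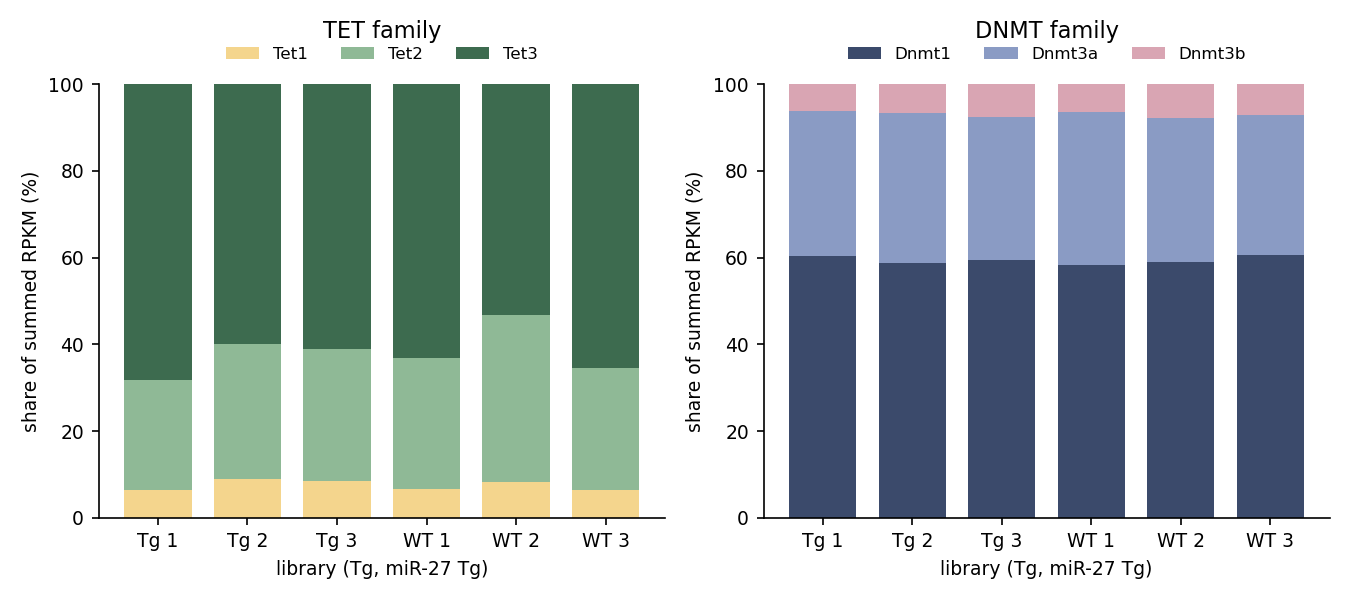
Share of each gene in the summed RPKM (%) of the TET family (left) and the DNMT family (right), 1 bar per library, miR-27 Tg libraries (Tg) left of WT. The DNMT shares are nearly level over the 6 libraries, while Tet3 ranges from 53.2% in WT replicate 2 to 68.3% in miR-27 Tg replicate 1.

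As shares of their family, Tet2 and Tet3 ranged over more percentage points between libraries than any methyltransferase did. Tet2 held 25.3% to 38.6% and Tet3 53.2% to 68.3%, while Dnmt3a, the widest methyltransferase, held 32.4% to 35.3%. Tet1 did not, at 6.30% to 8.89%. Tet3 (NM_183138, chromosome 6, 83362374 to 83441678, minus strand), the most abundant of the 3 Tet enzymes, had 219, 171 and 152 RPKM in miR-27 Tg, against 185, 143 and 181 RPKM in WT. Replicate 1 of miR-27 Tg was the highest and WT replicate 2 the lowest, and the coefficient of variation of 15.4% over the 6 libraries was the largest of the 10 genes, against 1.18% from counting error. Tet3 averaged 181 ± 34.5 RPKM in miR-27 Tg and 169.5 ± 23.1 in WT (log2 fold change 0.084, interval -0.28 to 0.45, limma adjusted p = 0.893). Tet2 (NM_001040400, chromosome 3, 133463677 to 133544390, minus strand), mutated in blood cancers in humans, had 81.1, 89.1 and 75.9 RPKM in miR-27 Tg, against 88.3, 104 and 77.7 RPKM in WT. The lowest library was miR-27 Tg and the highest WT, but the ranges overlapped. The means were 82.0 ± 6.65 and 89.9 ± 13.0 RPKM in miR-27 Tg and WT (log2 fold change -0.12, interval -0.42 to 0.17, limma adjusted p = 0.766), and the fold change moved to -0.017 when WT replicate 2 was left out and to -0.22 when WT replicate 3 was.

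Tet1 (NM_001253857, chromosome 10, 62804570 to 62880014, minus strand), whose 3′ UTR holds both of the seed matches shown above for this gene, had 20.6, 25.4 and 21.0 RPKM in miR-27 Tg, against 19.3, 22.2 and 17.4 RPKM in WT. In each group replicate 2 was the highest, and WT replicate 2 lay above 2 of the 3 miR-27 Tg libraries. Means of 22.3 ± 2.64 RPKM in miR-27 Tg and 19.6 ± 2.43 in WT gave a log2 fold change of 0.18 with an interval of -0.18 to 0.54 (limma, adjusted p = 0.716). The estimate dropped to 0.085 when miR-27 Tg replicate 2 was left out and to 0.097 when WT replicate 3 was. Tet3 held 63.1% ± 4.55, Tet2 29.0% ± 3.25 and Tet1 7.91% ± 1.31 of the summed RPKM of the family in miR-27 Tg, and Tet3 60.6% ± 6.57, Tet2 32.3% ± 5.51 and Tet1 7.06% ± 1.06 in WT, with overlapping groups for each.

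The PRC2 subunits were among the higher of the 10. Ezh2 (NM_007971, chromosome 6, 47530274 to 47595030, minus strand), the catalytic subunit, had 152, 157 and 153 RPKM in miR-27 Tg, against 154, 165 and 158 RPKM in WT. Replicate 2 of WT was the highest, and the remaining libraries lay within 6 RPKM of each other. Ezh2 averaged 154 ± 2.36 RPKM in miR-27 Tg and 159 ± 5.59 in WT, and its interval, the narrowest among the 10, ran from -0.23 to 0.14 around a log2 fold change of -0.046 (limma, adjusted p = 0.880). Eed (NM_021876, chromosome 7, 89954654 to 89980976, minus strand), the subunit that binds the H3K27 mark, had 234, 219 and 247 RPKM in miR-27 Tg, against 215, 226 and 216 RPKM in WT. Only WT replicate 2 overlapped with the miR-27 Tg range. The means were 233 ± 14.1 and 219 ± 6.19 RPKM in miR-27 Tg and WT (log2 fold change 0.088, interval -0.11 to 0.28, limma adjusted p = 0.744).

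Suz12 (NM_199196, chromosome 11, 79993106 to 80034123, plus strand), the scaffold subunit and the other transcript with a seed match, had 264, 265 and 235 RPKM in miR-27 Tg, against 281, 236 and 227 RPKM in WT. Both the highest and the lowest library were WT. Its log2 fold change was 0.044 (interval -0.20 to 0.29, limma adjusted p = 0.924), from means of 255 ± 16.8 RPKM in miR-27 Tg and 248 ± 28.7 in WT. Relative to Ezh2, Suz12 stood at 1.65 ± 0.106 in miR-27 Tg and 1.56 ± 0.222 in WT, and Eed at 1.51 ± 0.108 in miR-27 Tg and 1.38 ± 0.0156 in WT. The ratio of Eed to Ezh2 was 1.54, 1.40 and 1.61 in miR-27 Tg, against 1.39, 1.37 and 1.37 in WT, so its lowest miR-27 Tg value lay just above its highest WT value. It was the only one of 13 shares and ratios computed whose groups did not overlap, it was picked out after its values were seen, and no test was made of it. Exons of opposite-strand genes cover 6.82% of the annotated exonic bases of Eed, 3.60% of those of Suz12 and 2.61% of those of Ezh2, and reads of both strands were counted together.

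**Figure D3:**
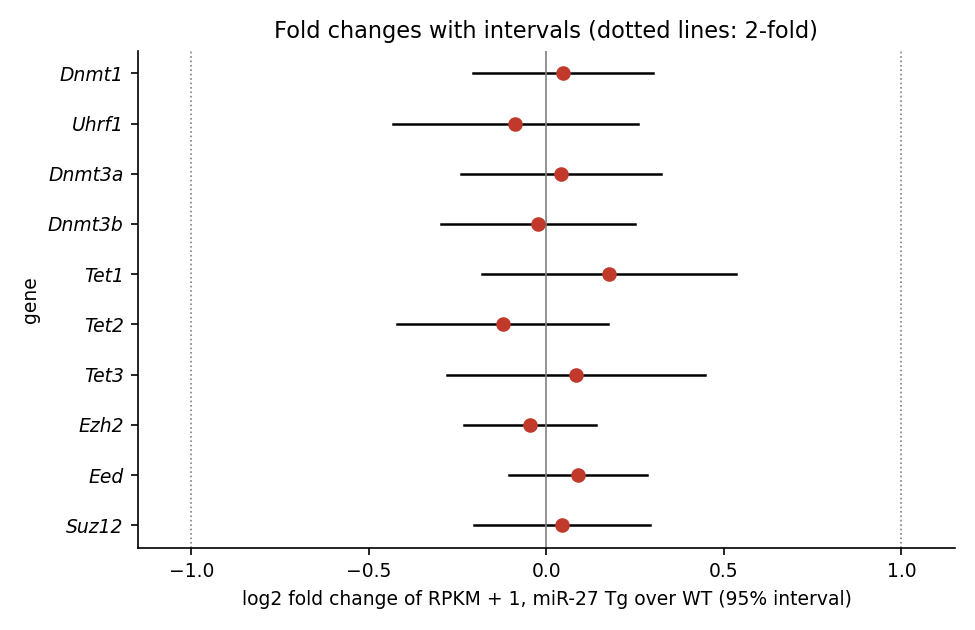
Log2 fold change of RPKM + 1 (miR-27 Tg over WT) of each regulator as a point, with its 95% interval from limma as a line; dotted lines mark a 2-fold change. Every interval includes 0 and lies between -0.43 and 0.54.

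A p that misses the threshold does not show that levels were the same, but the intervals bound the size of a difference. The widest bounds were -0.43 for Uhrf1 and 0.54 for Tet1. In the main fit, on the log2(RPKM + 1) scale, each of the 10 intervals taken singly thus excluded changes of more than 1.45-fold in either direction. The bounds depend on the fit: the estimate for Tet1 was 0.30 with array weights, an alternative given below, against 0.18. Dnmt1, Dnmt3a and Tet3 shared their extreme libraries: miR-27 Tg replicate 1 was the highest of the 6 for each, and miR-27 Tg replicate 3 and WT replicate 2 were the lowest pair. Without miR-27 Tg replicate 1 their fold changes were -0.033, -0.022 and -0.063, and without WT replicate 2 they were -0.018, -0.028 and -0.034, so leaving out 1 library changed the sign of each. Kdm6b, Bcor and Phc2, picked from the lists examined below because they show it, had the same highest library and lowest pair. The pattern was thus not particular to these regulators, but its share over all genes was not counted.

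Rows of different transcripts of 1 gene count the same reads in shared exons, so they are not independent. The difference in whole reads between a pair of rows was taken as an approximate count for the exons that separate them. The 10 genes had 30 rows in all, of which Dnmt3b had 9. The Dnmt3b rows differ in 4 exons of the longest form (GENCODE M21, GRCm38): 115 bases near the 5′ end from 153650785 to 153650899, 60 bases from 153670849 to 153670908, and the neighbouring exons of 70 and 119 bases from 153683608 to 153683677 and from 153684359 to 153684477. The last 2 encode part of the methyltransferase domain, and Dnmt3b forms that skip them are known. Rows with those 2 exons held 3, 1 and 1 more reads in miR-27 Tg replicates 1 to 3, and 1, 2 and 1 more in WT, than the row without them. At the read density of the rest of the row, 16.1 to 17.6 reads in miR-27 Tg and 18.2 to 19.3 in WT would fall on that length. The differences for these exons were thus small in every library of both groups. The same held for the exon of 115 bases, with 1, 3 and 0 more reads in miR-27 Tg and 2, 1 and 2 more in WT. The density of the row gives 9.80 to 10.7 reads in miR-27 Tg and 11.1 to 11.8 in WT for that length.

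The exon of 60 bases stood apart. The row with it held 5, 5 and 5 more reads in miR-27 Tg than the row without it, and 0, 0 and 3 more in WT. The density of the row gives 5.10 to 5.60 reads in miR-27 Tg and 5.70 to 6.10 in WT for that length. Another pair of rows that differ by the same exon gave 4, 4 and 5 more reads in miR-27 Tg and 0, 0 and 3 more in WT, largely the same reads. In a further pair, WT replicate 2 had 405 reads without the exon and 404 with it. A difference between rows is therefore not an exact count of the reads on the exon. These counts are very small, the exon was picked out after its values were seen, and no test was made of it.

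**Figure D4:**
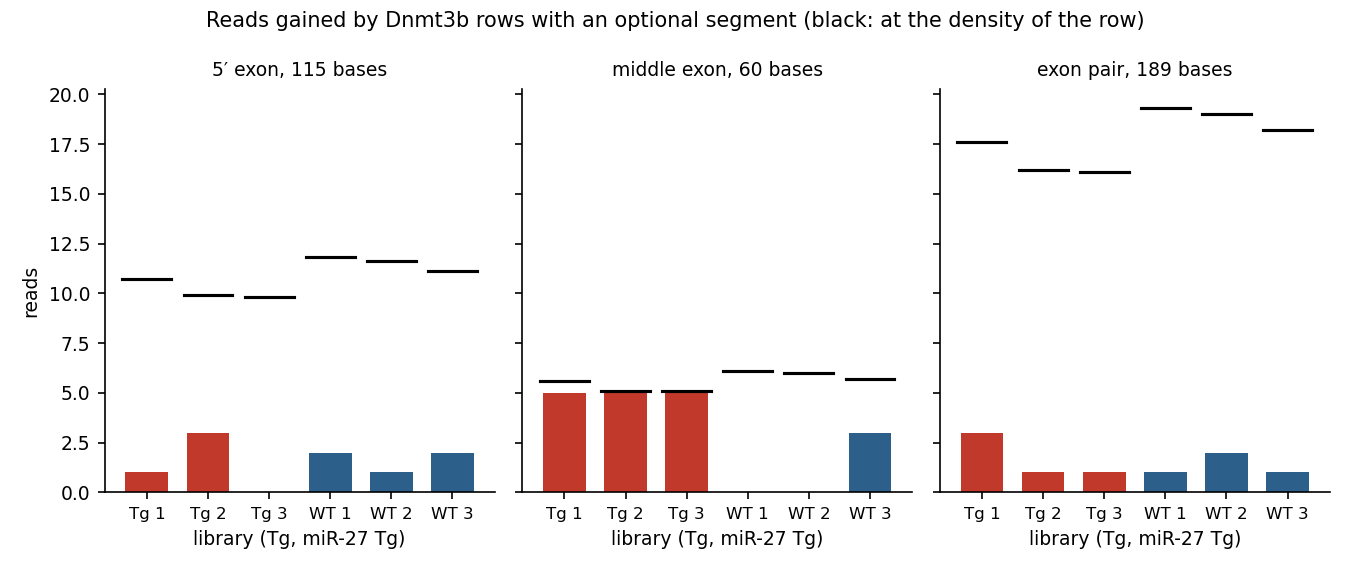
Reads gained by a Dnmt3b transcript row that includes an optional exon or pair of exons, over the row without it (bars, red miR-27 Tg, blue WT), in each library; black lines give the reads expected at the density of the shorter row. Bars stay at or below 3 reads for the exon of 115 bases and the pair of 70 and 119 bases (189 in all), and come close to the line only for the exon of 60 bases in miR-27 Tg libraries.

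For Dnmt3a, the row of the long form (NM_007872) is 817 bases longer than that of the short form (NM_153743), which starts from an internal promoter and lacks the N-terminal part. The long row held 413, 317 and 310 more reads in miR-27 Tg and 493, 330 and 393 more in WT, close to the 300.5 to 417 reads in miR-27 Tg and the 349.7 to 455 in WT that the density of the short row gives for that length. For Dnmt1, the longest row (NM_001199433) has 509 bases more than the row NM_010066 but held 65, 57 and 50 fewer reads in miR-27 Tg replicates 1 to 3, and 69, 41 and 76 fewer in WT. The first exon of NM_010066 thus held more reads than the longer first exon of NM_001199433 in every library. The row with the highest RPKM, NM_001199432, had 87, 73 and 61 fewer reads than NM_010066 in miR-27 Tg and 97, 56 and 87 fewer in WT, and ranks first only because it is 116 bases shorter. Over the rows of each gene the log2 ratio of group means varied little, for example from 0.049 to 0.051 for the 5 rows of Dnmt1 and from -0.028 to -0.0087 for the 9 of Dnmt3b.

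Other genes of both pathways were examined as lists chosen for their known roles. Of 14 other factors of methylation and demethylation 11 passed the filter and 0 were called by limma. At an unadjusted p under 0.05 by limma there were 3 of the 11, against 13.0% of all genes tested. The median log2 fold change of the 11 was -0.050, against -0.013 over all genes. Dnmt3l, Dppa3 and Cxxc4 were under 1 RPKM on average. Ogt, the O-GlcNAc transferase that binds Tet proteins, was the most abundant, with 689 ± 68.1 RPKM in miR-27 Tg and 712 ± 54.5 in WT. Gadd45g, a stress-induced protein linked to DNA demethylation, had 135 ± 22.5 and 104 ± 10.7 RPKM in miR-27 Tg and WT (log2 fold change 0.37, limma adjusted p = 0.310). Hells, a chromatin remodeller that DNA methylation requires, had 40.2 ± 4.41 and 53.3 ± 9.36 RPKM in miR-27 Tg and WT (-0.39, limma adjusted p = 0.344). Of 8 readers of methylated CpG limma called 0 (0 also at an unadjusted p under 0.05), with a median fold change of 0.015. Mbd2 was the most abundant, at 660.3 ± 21.2 RPKM in miR-27 Tg and 629 ± 27.4 in WT, and the extremes were 0.21 for Zbtb38 and -0.13 for Zbtb33.

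Of 9 other PRC2 subunits, limma again called 0, also at an unadjusted p under 0.05 (median -0.041). Ezh1, the alternative catalytic subunit, had 197 ± 6.70 RPKM in miR-27 Tg and 200.2 ± 14.2 in WT, so Ezh2 stood at 0.783 ± 0.0288 of Ezh1 in miR-27 Tg and 0.797 ± 0.0295 in WT. Phf1, an accessory subunit that binds trimethylated lysine 36 of histone H3, was the most abundant at 511 ± 21.0 and 534 ± 43.8 RPKM in miR-27 Tg and WT. The gene listed as E130012A19Rik, an older symbol of Epop, had the highest fold change (0.28) and Aebp2 the lowest (-0.19).

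Among 21 subunits of Polycomb repressive complex 1 (PRC1), which ubiquitinates histone H2A, limma called 0, with a median of -0.0070. At an unadjusted p under 0.05 by limma there were 3 of the 21, against 13.0% of all genes tested. Cbx7, a reader of the H3K27 mark, was the most abundant, with 564 ± 58.6 RPKM in miR-27 Tg and 662 ± 68.4 in WT. Pcgf2, also called Mel18, a RING finger subunit close to Bmi1, had 7.31, 7.09 and 4.10 RPKM in miR-27 Tg, against 11.6, 13.0 and 17.2 RPKM in WT. All 3 miR-27 Tg libraries were below all WT libraries, but the gene did not pass over all genes tested (log2 fold change -1.07, interval -1.65 to -0.50, limma adjusted p = 0.107). Over 16 alternative settings its adjusted p ranged from 0.0694 to 0.275. Bmi1 itself had 108 ± 11.3 and 119 ± 12.5 RPKM in miR-27 Tg and WT (-0.14, limma adjusted p = 0.707).

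Of 5 factors that oppose Polycomb silencing, the H3K27 demethylases Kdm6a and Kdm6b and the H2A deubiquitinase subunits Bap1, Asxl1 and Asxl2, limma called 0 (median -0.062). At an unadjusted p under 0.05 by limma there was 1 of 5, against 13.0% of all genes tested. The groups did not overlap for 3 of these 5, 3 of the 21 PRC1 subunits and 1 of the 11 methylation factors. They overlapped for all 8 readers and all 9 other PRC2 subunits. Over all genes tested 18.5% did not overlap. Asxl2 had the lowest fold change, with 155 ± 12.7 RPKM in miR-27 Tg and 191 ± 14.1 in WT (-0.30, limma adjusted p = 0.253), and Bap1 the highest (0.10). Asxl1 was the most abundant, at 268 ± 31.9 and 283 ± 8.20 RPKM in miR-27 Tg and WT. Because Dnmt1, Uhrf1 and Ezh2 are known to be higher in dividing cells, 16 replication and mitosis genes were examined as well. By limma 0 were called, and 1 of the 16 had an unadjusted p under 0.05, against 13.0% of all genes tested. The log2 fold changes were above 0 for 7 and below 0 for 9, with a median of -0.046. Groups did not overlap for 1 of the 16, Mcm6, against 18.5% of all genes tested. Their summed level was 2000.4 to 2037 RPKM in miR-27 Tg and 2046 to 2198 in WT, which did not overlap. Mcm6 and Pcna had the largest differences in mean RPKM, so the sum does not describe the 16 genes as a group. The part of the difference in summed level in the levels of the 10 regulators was not tested. Pcna, the sliding clamp of replication, had 443 ± 32.1 and 479 ± 26.2 RPKM in miR-27 Tg and WT. Mcm6, a subunit of the replicative helicase, had 277 ± 11.3 and 341 ± 13.0 RPKM in miR-27 Tg and WT. Its fold change was the lowest (-0.30, limma adjusted p = 0.156), and that of Mcm7, another subunit, was the highest (0.19).

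**Figure D5:**
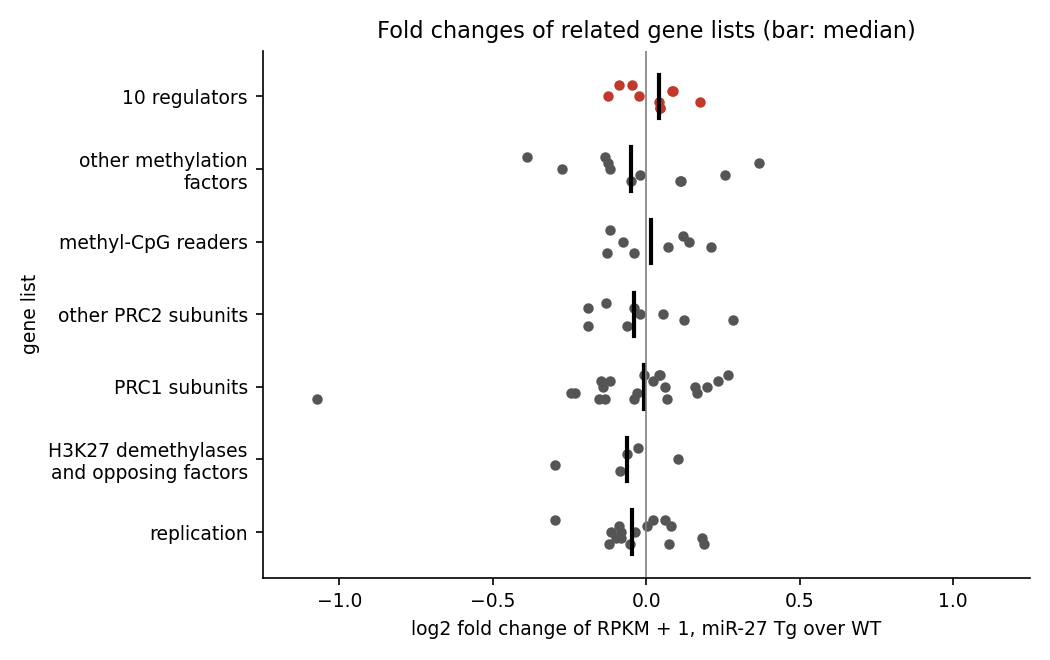
Log2 fold change of RPKM + 1 (miR-27 Tg over WT) of each tested gene of 7 lists, 1 point per gene, with a bar at the median of each list; the 10 regulators are in red. The medians lie between -0.062 and 0.042, and the point far to the left is Pcgf2 at -1.07.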

How the data were processed

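RNA sequencing of sorted Treg cells was analysed from 1 deposited table with 3 miR-27 Tg and 3 WT columns. The authors' RPKM values were made with HOMER from exons of mm10 RefSeq transcripts on both strands, with library totals set to 10000000, per the file headers. STAR 2.2.0c is named per the submitters' processing notes. The sources used here do not give the treatment of multi-mapping reads.

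Whole reads were derived from the step between low RPKM values (transcripts of 200 to 4000 bases, 100% whole within 0.1). They served for read numbers only, and no count model was run. For each symbol the row with the highest mean was kept, symbols whose mean RPKM reached 1 were kept, and log2(RPKM + 1) was fitted with limma 3.58.1 in R 4.3.3 with an intensity trend. Tests were two-sided, adjusted by Benjamini-Hochberg over the 13621 genes, with a threshold of 0.05. Intervals are limma's 95% intervals, not adjusted. The procedure was tested on simulated data. Fold changes on this scale understate changes of low genes.

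The members and lists were chosen with earlier results of these data known. Every member was named. From other lists the most abundant gene and those with the highest and lowest fold change were named. Ezh1, Bmi1, Kdm6b, Bcor, Phc2, marker genes and genes below the filter were added after their values were seen. Some items are not reported here. Alternatives covered pseudocount, filter, scaling, transcript row, trend, weights, replicate block and each library left out.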

Additional observations from a re-analysis of the deposited data

How the results depend on the processing

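Over 16 alternatives, 0 of the 10 regulators were called in either direction by limma, 0 had an unadjusted p under 0.05, and the lowest adjusted p was 0.417 (Tet1, array weights). Tet1, Tet2, Ezh2 and Eed kept their sign in all 16 but not their size: without 1 library they ran from 0.085 to 0.27, from -0.22 to -0.017, from -0.068 to -0.019 and from 0.046 to 0.13, and Tet2 was at -0.0098 with array weights. The log2 fold change of Dnmt3b was 0.041 with quantile normalization and 0.0079 with median ratio scaling, against -0.024. Leaving out each library gave -0.033 to 0.13 for Dnmt1, -0.028 to 0.14 for Dnmt3a, -0.18 to 0.048 for Uhrf1, -0.063 to 0.20 for Tet3 and -0.016 to 0.14 for Suz12, and likewise -0.12 to 0.026 for Ogt, -0.10 to 0.0052 for Phf1, -0.071 to 0.031 for Ezh1 (0.012 with median ratio scaling) and -0.15 to 0.014 for Asxl1. Over all genes, 15 were higher and 32 lower with no filter on low values, 81 and 144 with array weights, 91 and 185 with a replicate block, and 3 to 20 higher and 2 to 47 lower without 1 library, against 51 and 89. The causes were not tested. Whether equal replicate numbers pair the libraries was not settled. Correlations of deviations across genes were 0.368, 0.0971 and 0.0368 for numbers 1 to 3. For miR-27 Tg replicate 1 they were -0.222 and -0.143 with WT replicates 2 and 3. In contrast, miR-27 Tg replicates 2 and 3 correlated better with another WT number than with their own. With 3 libraries a group, changes that lie inside the intervals given were not excluded. A gene whose unadjusted interval leaves out 0 can also miss the adjusted threshold, as Pcgf2 did.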
